A study of Mus musculus with 32 samples.

Results

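The 7 genes described here form the core of the death receptor pathway: the ligands Fasl and Tnfsf10, the receptors Fas and Tnfrsf10b, the adaptor Fadd, the initiator caspase Casp8 and its regulator Cflar. They were chosen by name from the 46517 genes of a bulk RNA sequencing table with 32 libraries. All 7 were in the table, and all 7 passed the filter on low values (at least 1 TPM in 4 or more libraries) that left 19738 genes to test. Fasl passed through the other groups, since it lay below 1 TPM in every naive library.

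The libraries were made from CD8+ Thy1.1+ Pmel T cells, whose transgenic T cell receptor recognizes a melanocyte antigen. The 8 groups of 4 were naive cells from spleen, cells of the tumor-draining lymph node at day 12, memory cells of the lymph node, and T cells isolated from skin, liver, lung, tumor or spleen. All 8 groups, the naive one included, carry the labels C57BL/6, 16 weeks of age and melanoma-associated vitiligo, a depigmentation that accompanies immunity to melanoma. Memory cells of lymph node, skin, lung and liver date from 45 days after the tumor was removed. No time is stated here for the naive, spleen or tumor groups. No label says which samples came from separate animals or pools, so p-values measure the spread between these samples, which may in part be technical. Tissue, time and digestion differ together between several groups and cannot be told apart.

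Death receptors are members of the TNF receptor family that carry a death domain in the cytoplasm. On binding their ligand they recruit the adaptor FADD, which gathers caspase-8 so that it cleaves itself and then the effector caspases. The product of Cflar, c-FLIP, resembles caspase-8 without its catalytic activity and enters the same complex, where it limits caspase-8 activation. In CD8 T cells, Fas ligand is both a means of killing target cells and part of the contraction of activated T cells, and TRAIL, encoded by Tnfsf10, acts through the receptor encoded by Tnfrsf10b.

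Values are TPM, transcript shares corrected for gene length, so a level is a share of all RNA in a library and the read depth behind it is unknown. Differences are given as log2 of TPM + 1 with the standard error (SE) of 1 linear model over all 8 groups, fitted with limma to all tested genes. A gene was called at a Benjamini-Hochberg adjusted p under 0.05 within a comparison. Where groups are said not to overlap, the share of all tested genes without overlap was not counted. Errors of TPM means are standard deviations (SD), with n = 4 libraries throughout.

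The 16 T cell identity genes, among them the CD3 and CD8 chains, were all above 0 in every group. Their summed level was under 0.5 of the median of all libraries in 5 libraries, called T cell-poor from here on. They were replicates 2, 3 and 4 of liver, replicate 4 of tumor and replicate 4 of skin. Without these 5, liver is replicate 1 alone (n = 1), so such a liver value describes 1 library, and its p-value assumes that this library varies like those of the other groups. Liver libraries held 1926 to 17070 TPM of myeloid genes and 852 to 34900 TPM of hepatocyte genes, against 94.6 to 118.7 and 0.72 to 3.99 TPM in naive libraries. In skin, keratinocyte genes summed to 190 to 3512 TPM, with the highest value in replicate 4, and myeloid genes to 398.7 to 8318 TPM, with the highest value in replicate 3. Lung replicate 3 held 47390 TPM of B cell genes and 10590 TPM of hepatocyte genes. Spleen libraries held 1596 to 18490 TPM of B cell genes and 880.9 to 9270 TPM of myeloid genes. Naive libraries held 850.4 to 1005 TPM of B cell genes. Lymph node memory libraries held 428.1 to 5142 TPM of B cell genes. Replicate 4 had the highest of these values and the lowest T cell identity sum of its group, 8131 TPM. Melanocyte and melanoma genes summed to 358.9 to 843.9 TPM in tumor, against 9.65 to 15.22 TPM in naive libraries. Erythroid genes summed to 3609 to 12470 TPM in tumor and 557.3 to 91050 TPM in liver, against 337.8 to 942.3 TPM in naive libraries. In these bulk samples, fewer cells of a type and less RNA of a gene per cell cannot be told apart. Taken as the root of the mean variance over all tested genes, the spread within a group ran from 0.303 on the log2 scale in day 12 lymph node to 1.33 in liver.

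The 2 ligands changed most, so the sequences upstream of their start sites are shown with matches to the core of the NFAT motif, GGAAA, on either strand. NFAT proteins are transcription factors activated by T cell receptor signalling. The windows come from the RefSeq promoter table for build GRCm38.p6 (mm10), which holds 6 of the 7 members, and run 5′ to 3′ on the strand of the gene, with GGAAA or its complement TTTCC in capitals. The Fasl window is chr1:161788496-161788745 on the minus strand, and the Tnfsf10 window is chr3:27316827-27317026 on the plus strand.
Fasl: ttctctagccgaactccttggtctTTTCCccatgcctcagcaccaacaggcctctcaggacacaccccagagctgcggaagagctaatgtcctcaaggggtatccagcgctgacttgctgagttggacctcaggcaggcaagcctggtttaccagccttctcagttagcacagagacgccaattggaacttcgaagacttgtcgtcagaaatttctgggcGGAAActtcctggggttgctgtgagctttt
Tnfsf10: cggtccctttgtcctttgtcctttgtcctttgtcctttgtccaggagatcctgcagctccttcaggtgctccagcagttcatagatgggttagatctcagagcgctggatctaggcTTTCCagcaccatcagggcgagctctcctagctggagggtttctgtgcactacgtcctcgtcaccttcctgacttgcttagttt

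The Fasl window held 2 matches, 226 to 222 and 30 to 26 bases before the end of the window. The Tnfsf10 window held 1 match, 84 to 80 bases before its end. A match of this kind is common: 55.6% of 32851 promoters held at least 1 in the 250 bases matching the Fasl window, and 48.5% in the 200 bases matching the Tnfsf10 window. Neither window held the AP-1 letters TGANTCA, present in 6.75% and 5.57% of promoters, or the interferon-stimulated response element core, present in 2.98% and 2.40%. These are matches of letters only, and nothing here measured binding.

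The 7 genes lie on 5 chromosomes in the GENCODE M21 annotation of the same build. Fasl is at chr1:161780689-161788495 on the minus strand and Tnfsf10 at chr3:27317028-27342427 on the plus strand. Fas is at chr19:34290666-34327772 and Tnfrsf10b at chr14:69767472-69784411, both on the plus strand. Cflar, at chr1:58711508-58758884, and Casp8, at chr1:58795374-58847503, are neighbours on the plus strand with 36489 bases and 0 protein-coding genes between them. Fadd, at chr7:144577318-144582463 on the minus strand, overlaps the antisense gene Faddos, and reads of both cannot be told apart if the counting ignored strand, on which the sources used here say nothing. All 7 are annotated as protein-coding, and the values are for whole genes, not for single exons or isoforms.

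**Figure D1:**
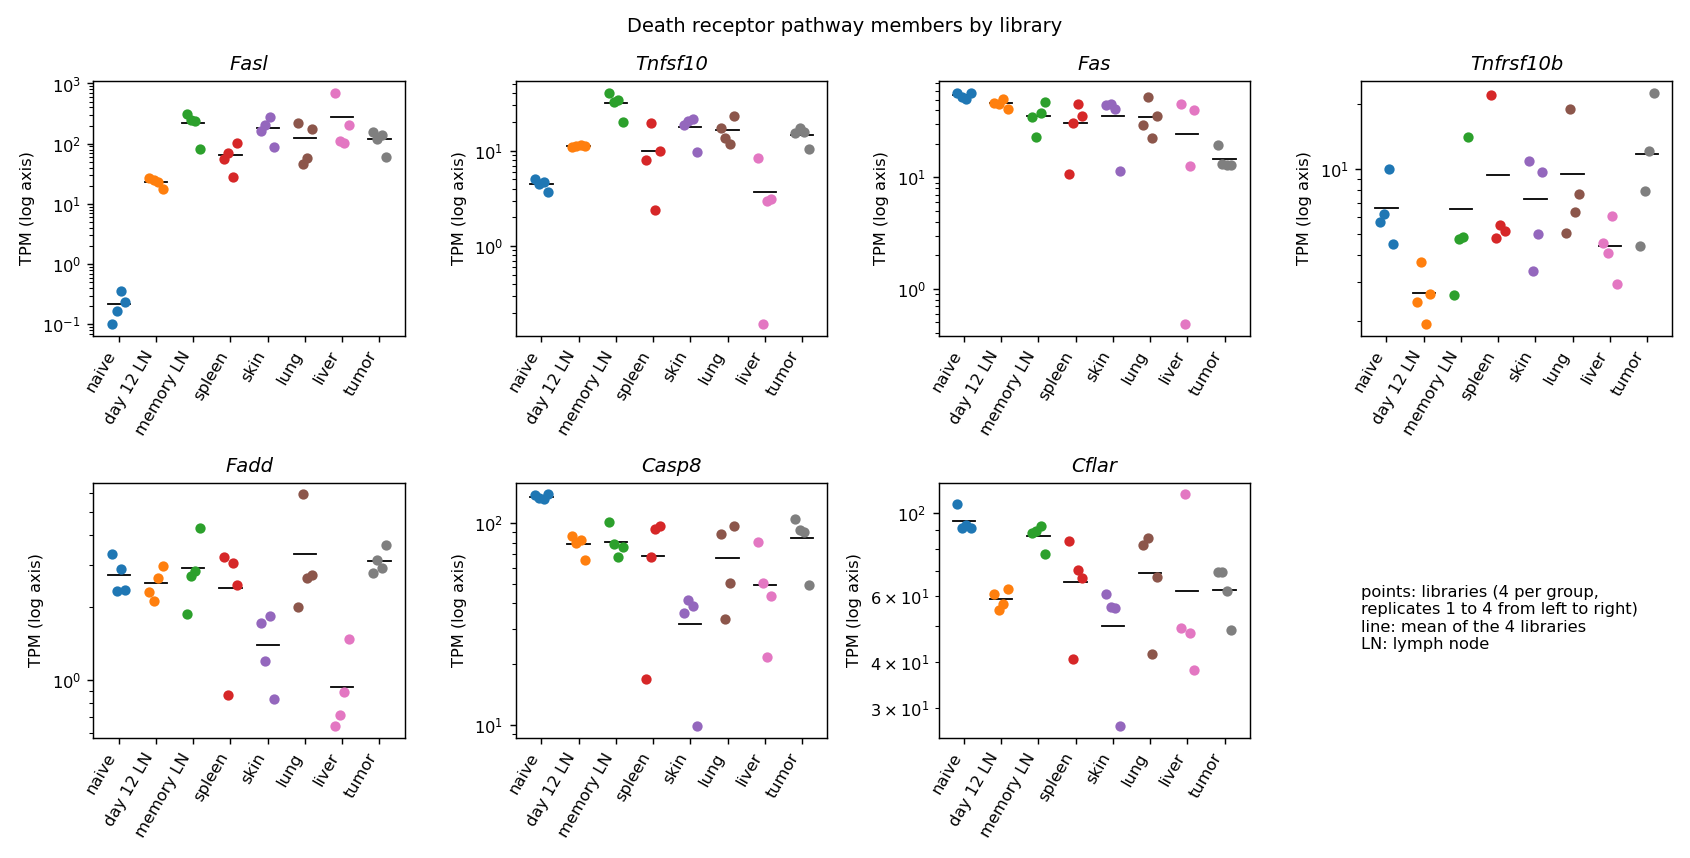
TPM of each of the 7 genes on a log axis, with 1 point per library in each of the 8 groups and a line at the mean of the 4 libraries. Fasl separates all 28 other libraries from the 4 naive ones, which sit between 0.10 and 0.36 TPM, whereas Fas, Tnfrsf10b, Fadd and Cflar overlap between most groups.

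Over the 8 groups as a whole, 4 of the 7 genes differed: Fasl, Tnfsf10, Casp8 and Fadd. Their adjusted p-values in the limma F test were 7.66e-11, 7.98e-05, 0.0105 and 0.0209. Fas (0.089), Cflar (0.116) and Tnfrsf10b (0.131) did not pass. Across all tested genes 46.9% passed this test, so 4 of 7 is near the background. Fasl ranked 44th of 19738 genes by this test.

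Against naive cells, 1 member was called higher in day 12 lymph node, 2 in lymph node memory, 1 in spleen, 2 in lung and 2 in tumor, with 0 called lower. The background shares of called genes there were 11.1% in day 12 lymph node, 6.52% in lymph node memory, 6.08% in spleen, 9.39% in lung and 15.3% in tumor. In skin 2 members were called higher and 2 lower, where 19.5% of all tested genes were called. In liver 1 was higher and 3 lower, where 37.1% of all genes were called. These 7 comparisons share the 4 naive libraries, so they are not independent of each other.

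Against spleen, liver had 1 member called, higher, with 13.6% of all genes called. Lymph node memory, skin, lung and tumor had 0 members called against spleen in the limma fit, with 0.481%, 7.68%, 0.111% and 6.25% of all genes called. At an unadjusted p under 0.05 these 4 comparisons had 2, 3, 0 and 0 members, and alternative fits called up to 2 members in lymph node memory and in skin and 0 in lung and tumor. Lymph node memory against day 12 lymph node had 1 member called higher (background 7.41%). Skin had 1 called lower against tumor (7.34%) and 1 called lower against lymph node memory (7.48%).

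**Figure D2:**
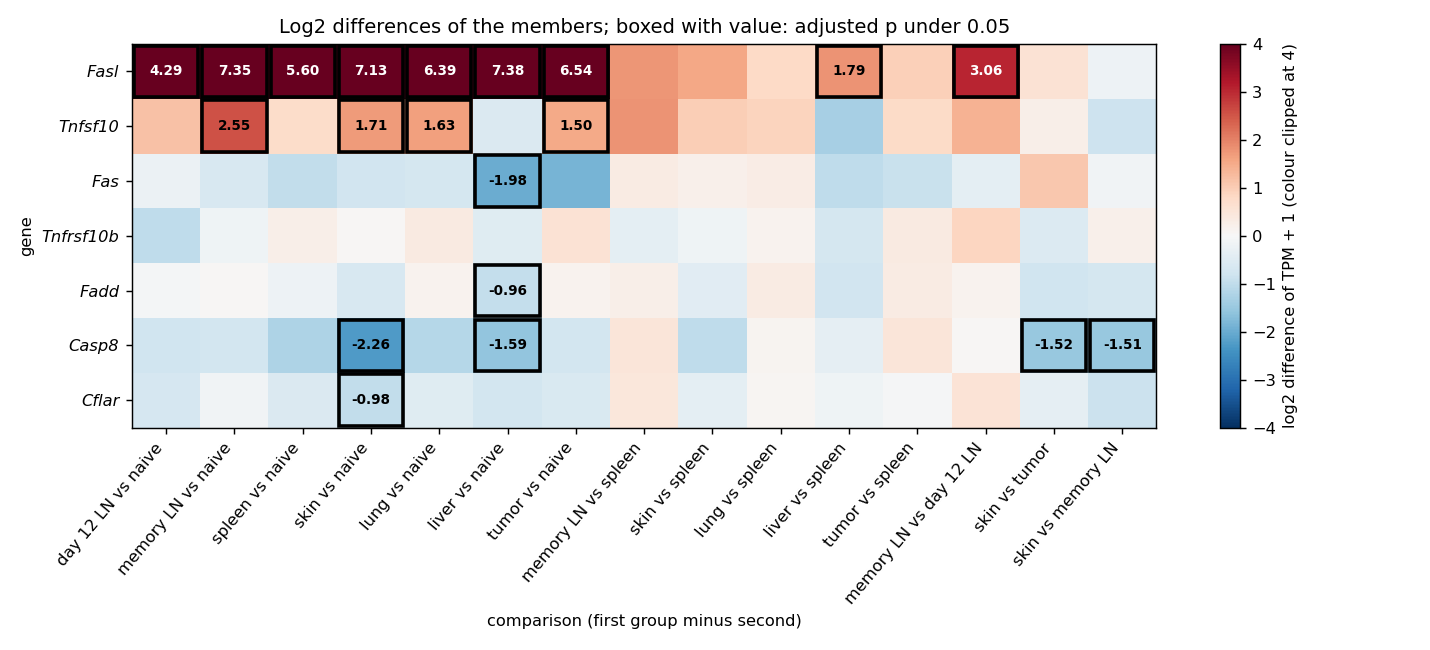
Log2 difference of TPM + 1 for each of the 7 genes (rows) in the 15 comparisons (columns, first group minus second), with colour clipped at 4. Boxes with a printed value mark the 20 of 105 pairs with an adjusted p under 0.05, of which 9 belong to Fasl.

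Fasl encodes Fas ligand. It was almost absent from naive cells and present in every other group. The naive libraries had 0.10, 0.17, 0.36 and 0.24 TPM, and day 12 lymph node 26.8, 24.9, 22.9 and 17.5 TPM. Lymph node memory libraries had 309, 249, 235 and 82.3 TPM. The first 2 groups have narrow ranges that lie far apart, and memory libraries lie above both of them. Spleen libraries had 55.3, 70.2, 27.7 and 103 TPM, and skin libraries 164, 204, 281 and 87.3 TPM. Lung libraries had 219, 45.3, 58.5 and 175 TPM. Lung falls into 2 higher libraries, replicates 1 and 4, and 2 lower ones. Liver libraries had 705, 112, 102 and 204 TPM, of which replicate 1 is the highest of all 32 libraries. Tumor libraries had 154, 119, 141 and 61.1 TPM.

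By mean log2 level the order of Fasl was liver, lymph node memory, skin, tumor, lung, spleen, day 12 lymph node and naive. Neighbours from liver down to spleen overlapped in range. Spleen and day 12 lymph node did not, but only narrowly, at 27.7 against 26.8 TPM. Day 12 lymph node and naive libraries were far apart, at 17.5 against 0.36 TPM.

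Every comparison with naive cells was called. The log2 difference was smallest in day 12 lymph node, 4.29 ± 0.55 (SE; limma adjusted p = 1.21e-06), followed by spleen at 5.60 (2.87e-08) and lung at 6.39 (1.2e-09). It was 6.54 in tumor (4.57e-10), 7.13 in skin (6.75e-11), 7.35 in lymph node memory (6.88e-11) and 7.38 in liver (6.04e-11). With a pseudocount of 1 and naive levels under 1 TPM, these values understate the ratio of levels. All 7 calls held in each of the 17 alternatives run for that comparison. Without the 5 T cell-poor libraries the values for skin and tumor were 7.45 and 6.83, and liver replicate 1 alone, the highest Fasl library of all, gave 9.18.

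Fasl also rose between day 12 and memory in the lymph node, by 3.06 (limma adjusted p = 0.000443), with no overlap between the groups. The means were 23.0 ± 4.02 and 219 ± 96.5 TPM (SD, n = 4). Against spleen, Fasl rose in liver by 1.79 (limma adjusted p = 0.0308), although the groups overlapped. That call was lost without liver replicate 1 (difference 1.19, adjusted p = 0.0868), without spleen replicate 3 (1.44, 0.0994) and in 3 other alternatives. Skin against spleen missed the threshold, at 1.54 (limma adjusted p = 0.0877), as did lymph node memory against spleen, at 1.75 (0.179). Lung and tumor against spleen had adjusted p-values of 0.853 and 0.394.

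NK cells also express Fas ligand, so the 7 NK cell genes (Ncr1, Klrb1c and 5 others) were summed in every library. The sum was 1.32 to 5.62 TPM in naive, 2.90 to 3.91 in day 12 lymph node, 5.21 to 11.8 in lymph node memory and 3.45 to 9.01 in skin. It was 9.88 to 16.6 TPM in tumor, 11.5 to 112 in spleen, 11.7 to 90.7 in lung and 0 to 467 in liver. All 7 genes were listed at 0 in liver replicate 2, where Fasl was 112 TPM. The lung epithelial and the CD4 and regulatory T cell genes also summed to 0 in that library, and its read depth is unknown. In liver replicate 4 the NK sum was 467 TPM and Fasl 204 TPM, and in liver replicate 1, with the highest Fasl, the NK sum was 26.1 TPM. In spleen replicate 4 the NK sum was 112 TPM and Fasl 103 TPM. The part of NK cells in the Fasl values was not tested.

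**Figure D3:**
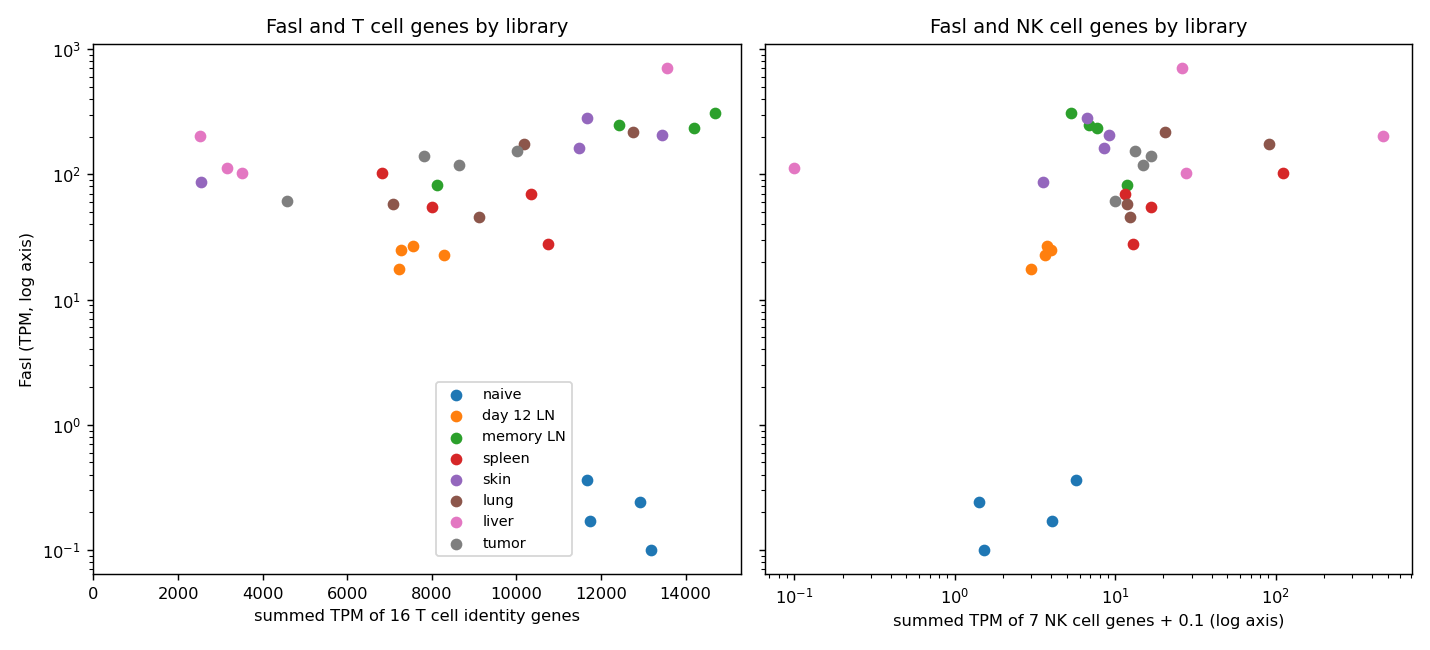
Fasl TPM (log axis) in each of the 32 libraries against the summed TPM of 16 T cell identity genes (left) and of 7 NK cell genes plus 0.1 (right, log axis), coloured by group. The naive libraries combine high T cell sums with Fasl of at most 0.36 TPM, and liver replicate 2 has an NK sum of 0 with Fasl at 112 TPM.

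The genes most like Fasl across the 32 libraries were Klrk1 (Pearson r = 0.959), Klrc1 (0.948) and Adam8 (0.928), of 7236 genes searched. Klrk1 and Klrc1 encode the lectin-like receptors NKG2D and NKG2A, found on NK cells and activated CD8 T cells. These correlations describe 8 groups of 4 libraries, which differ in composition, and are no test.

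Tnfsf10 encodes TRAIL. It was highest in lymph node memory cells and lowest in liver and naive cells. Naive libraries had 5.07, 4.48, 4.71 and 3.70 TPM, and day 12 lymph node 11.1, 11.3, 11.5 and 11.1 TPM. Lymph node memory libraries had 40.8, 32.9, 34.1 and 20.0 TPM. The day 12 libraries were almost equal, all above naive and all below memory. Spleen libraries had 8.04, 19.5, 2.40 and 10.0 TPM, and lung libraries 17.2, 13.6, 11.7 and 23.3 TPM. Skin libraries had 18.6, 20.4, 21.8 and 9.81 TPM, the low one being the library with the lowest T cell identity sum in skin. Spleen overlapped with naive, whereas skin and lung did not. Tumor libraries had 15.3, 17.2, 15.7 and 10.4 TPM. Liver libraries had 8.43, 0.15, 2.94 and 3.14 TPM, of which 3 lay below every naive library.

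Tnfsf10 rose against naive cells in lymph node memory by 2.55 ± 0.47 (SE; limma adjusted p = 0.000459) and in skin by 1.71 (0.00939). Both calls held in all 17 alternatives. It rose in lung by 1.63 (limma adjusted p = 0.0237) and in tumor by 1.5 (0.0280), and these 2 calls sat close to the threshold. The lung call was lost without naive replicate 2, 3 or 4 or lung replicate 4 (adjusted p 0.0508 to 0.0683) and at a pseudocount of 0.1 (0.0965). The tumor call was lost without any 1 of the 4 naive libraries or of tumor replicates 1, 2 and 3 (0.0519 to 0.0754) and at a pseudocount of 0.1 (0.105).

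Several other differences of Tnfsf10 separated the groups without passing the test. Day 12 lymph node exceeded naive cells in all libraries, by 1.16 (limma adjusted p = 0.118). Lymph node memory exceeded day 12 lymph node by 1.38 (0.0701) and spleen by 1.81 (0.0771), with no overlap in either case. Weights per group called all of these differences (limma adjusted p = 1.98e-08, 5.79e-06 and 0.0126, in the same order). That fit also called 11201 genes for day 12 lymph node against naive. Quantile normalization called the first and the last of them (0.0208 and 0.0307). Most alternatives left each of them uncalled. Liver against spleen was -1.32 (0.0565), with overlap. Without the 5 T cell-poor libraries it was 0.05, with liver replicate 1 as the only liver library.

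The balance of the 2 ligands is given as a description, with no test. The Fasl level divided by the Tnfsf10 level ran from 0.0197 to 0.0764 in naive libraries and from 1.57 to 2.43 in day 12 lymph node. It was 4.12 to 7.59 in lymph node memory, 3.60 to 11.5 in spleen, 8.81 to 12.9 in skin, 3.34 to 12.7 in lung and 5.89 to 10.1 in tumor. In liver it was 34.8 to 749, above every library of the other groups. Liver replicates 2, 3 and 4 were among the T cell-poor libraries. Replicate 1, with a T cell sum of 13570 TPM, had a ratio of 83.7. It also held 29570 TPM of erythroid, 1926 TPM of myeloid and 852 TPM of hepatocyte genes. The part of other cells in the ratio was not tested.

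The genes most like Tnfsf10 were Ikzf3 (r = 0.897), which encodes the lymphoid transcription factor Aiolos, Rgs3 (0.883) and Pelo (0.878).

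Fas encodes the receptor for Fas ligand. Its level was highest in naive cells and lowest in tumor and liver. Naive libraries had 57.6, 53.2, 50.6 and 56.9 TPM, and day 12 lymph node 46.98, 45.5, 50.9 and 41.4 TPM. Lymph node memory libraries had 34.7, 23.0, 37.5 and 47.6 TPM. Each of the 4 memory libraries lay below the naive range. Spleen libraries had 10.7, 31.0, 45.7 and 35.5 TPM, and skin libraries 45.0, 45.2, 40.9 and 11.4 TPM. Lung libraries had 29.7, 52.7, 22.4 and 35.6 TPM. In spleen and in skin a single library, replicates 1 and 4, was far below the other 3. Liver libraries had 46.0, 0.48, 12.7 and 39.9 TPM. Tumor libraries had 19.4, 13.2, 12.9 and 12.8 TPM, a narrow range below every naive, day 12 lymph node, lymph node memory and lung library.

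Fas fell in liver against naive cells by 1.98 on the log2 scale (SE 0.65; limma adjusted p = 0.0178). That call rested on replicate 2, without which the difference was -0.90 (adjusted p = 0.129). Without the 5 T cell-poor libraries it was -0.24 (0.813), a value of liver replicate 1 alone. Tumor against naive was -1.85 (limma adjusted p = 0.0508), just short of the threshold with no overlap between the groups, and 5 alternatives called it. Skin against tumor was 1.08 (0.415). Neighbouring groups in the order of Fas levels (naive, day 12 lymph node, lymph node memory, lung, skin, spleen, tumor, liver) overlapped throughout.

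Naive cells had the highest Fas and the lowest Fasl levels by group: the ratio of Fasl to Fas was 0.00174 to 0.00712 there and 0.422 to 0.571 in day 12 lymph node. It was 1.73 to 10.8 in lymph node memory, 0.606 to 5.17 in spleen, 3.64 to 7.65 in skin, 0.859 to 7.36 in lung, 5.11 to 234 in liver and 4.77 to 10.9 in tumor. The genes most like Fas were Ing3 (r = 0.922), Zfp148 (0.917) and Ctps2 (0.917).

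Tnfrsf10b encodes the TRAIL death receptor, DR5. It was called in 0 of the 15 comparisons with the limma fit, with 1 at an unadjusted p under 0.05 and calls in 2 comparisons under alternative fits. Naive libraries had 5.72, 6.18, 9.98 and 4.49 TPM, and day 12 lymph node 2.43, 3.74, 1.92 and 2.65 TPM, all below naive. That difference was -1.02 (limma adjusted p = 0.219). Lymph node memory libraries had 2.62, 4.76, 4.86 and 14.0 TPM, and spleen libraries 21.8, 4.8, 5.51 and 5.15 TPM. Skin libraries had 10.8, 3.38, 4.99 and 9.71 TPM. A single high library stood out in lymph node memory and in spleen. Lung libraries had 5.04, 18.8, 6.34 and 7.67 TPM, and liver libraries 4.54, 4.09, 6.07 and 2.96 TPM. Tumor libraries had the widest range, at 4.39, 7.89, 12.1 and 22.5 TPM. Neighbouring groups in its order overlapped throughout.

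In 5 of the 8 groups (naive, spleen, lung, liver and tumor) the library highest in Tnfrsf10b was also the lowest in Casp8, a comparison made after the values were seen and not tested. The genes most like Tnfrsf10b were the unnamed RP23.477N9.4 (r = 0.936) and RP23.393G8.5 (0.920) and the pseudogene Mrgprc2.ps (0.914).

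Fadd encodes the adaptor that links the receptors to caspase-8. Its level was low, between 0.64 and 5.91 TPM in the 32 libraries, and lowest in liver and skin. Naive libraries had 3.34, 2.34, 2.90 and 2.36 TPM, and day 12 lymph node 2.31, 2.13, 2.66 and 2.98 TPM. Lymph node memory libraries had 1.87, 2.69, 2.83 and 4.27 TPM, and spleen libraries 3.24, 0.86, 3.05 and 2.48 TPM. These 4 groups overlapped. Skin libraries had 1.72, 1.2, 1.84 and 0.83 TPM, and liver libraries 0.64, 0.71, 0.89 and 1.47 TPM. All 8 lay below every naive library. Lung libraries had 2.01, 5.91, 2.65 and 2.73 TPM, and tumor libraries 2.78, 3.16, 2.91 and 3.65 TPM.

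Fadd fell in liver against naive cells by 0.96 on the log2 scale (SE 0.30; limma adjusted p = 0.0146). The median difference of all tested genes in that comparison was -0.555. When TPM were rescaled to equal T cell identity sums the difference was 0.04 (adjusted p = 0.973), and with quantile normalization it was -0.21 (0.684). In skin the same comparison was -0.65 (limma adjusted p = 0.138). Skin lay below tumor by -0.80 (0.120) and below lymph node memory by -0.70 (0.175), in both cases without overlap and without a call. The genes most like Fadd were Noa1 (r = 0.778), Sp140 (0.768) and Ilf2 (0.764).

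Casp8 encodes caspase-8, which the receptor complex activates. It was highest in naive cells and lowest in skin. Naive libraries had 138, 134, 132 and 139 TPM, and day 12 lymph node 86.2, 79.8, 82.3 and 65.8 TPM. Lymph node memory libraries had 101, 78.8, 68.3 and 76.1 TPM. Naive libraries lay within a narrow range above all 28 others. Spleen libraries had 16.9, 68.2, 93.9 and 96.8 TPM, and lung libraries 88.0, 33.3, 50.8 and 96.4 TPM. Skin libraries had 35.7, 41.4, 38.8 and 9.83 TPM. Skin lay below every naive, day 12 lymph node, lymph node memory and tumor library. Liver libraries had 80.4, 50.6, 21.7 and 43.7 TPM, and tumor libraries 105, 92.2, 90.0 and 49.2 TPM. Apart from naive and tumor, neighbouring groups in the order of Casp8 levels overlapped.

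Casp8 fell in skin against naive cells by 2.26 on the log2 scale (SE 0.47; limma adjusted p = 0.000771), from 136 ± 3.43 to 31.4 ± 14.6 TPM (SD, n = 4). The call held in all 17 alternatives. It was -1.79 (adjusted p = 0.00148) without the T cell-poor libraries, and -1.69 (0.00519) with T cell identity sums made equal. The 3 skin libraries other than replicate 4 had T cell sums of 11490 to 13430 TPM, against 11680 to 13170 TPM in naive libraries. Keratinocyte genes summed to 190 to 3512 TPM in skin, against 5.59 to 9.92 TPM in naive libraries. Myeloid genes summed to 398.7 to 8318 TPM in skin, against 94.6 to 118.7 TPM in naive libraries. The part of other cells in the skin values was not tested.

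Skin also fell below tumor by 1.52 (limma adjusted p = 0.0423) and below lymph node memory by 1.51 (0.0440) on the log2 scale, with no overlap. Both calls were near the threshold. The tumor call held in 8 of 17 alternatives, and was lost without skin replicate 1 or 4 or tumor replicate 1, 2 or 3 (adjusted p 0.0565 to 0.177) and in 4 other fits. The memory call held in only 5 of 17. It was lost without skin replicate 1 or 4 or any 1 lymph node memory library (0.0584 to 0.234) and with a replicate block (0.0559). It was also lost without the T cell-poor libraries, at -1.04 (0.098), with equal T cell identity sums, at -0.98 (0.296), and in 3 other fits.

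In liver Casp8 fell against naive cells by 1.59 (limma adjusted p = 0.00942), from 136 to 49.1 ± 24.2 TPM. Rescaling to equal T cell identity gave -0.12 (adjusted p = 0.876), and leaving out the 5 T cell-poor libraries, which keeps only liver replicate 1, gave -0.75 (0.456). The other differences from naive were -0.79 in day 12 lymph node (limma adjusted p = 0.341), -0.75 in lymph node memory (0.562), -1.23 in spleen (0.129), -1.13 in lung (0.140) and -0.74 in tumor (0.319). In these 5 comparisons the groups did not overlap, and the differences did not pass the test. Between 2 and 3 alternatives called each of them. Genes most like Casp8 were Inpp5b (r = 0.932), Slc25a11 (0.904) and Sept6 (0.903).

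Cflar encodes c-FLIP, the caspase-8 relative that limits its activation. It varied less than Casp8. Naive libraries had 106, 91.0, 92.7 and 91.2 TPM, and lymph node memory 88.7, 89.4, 92.2 and 77.5 TPM, which overlapped. Day 12 lymph node libraries had 60.6, 55.1, 57.2 and 62.7 TPM, below both of those groups. Spleen libraries had 84.1, 40.6, 70.2 and 67.0 TPM, and lung libraries 82.0, 85.7, 42.1 and 67.5 TPM. Skin libraries had 60.6, 56.1, 55.8 and 26.9 TPM, with replicate 4 again the lowest. Liver libraries had 49.3, 112, 47.7 and 38.1 TPM, and replicate 2, where Fas and Tnfsf10 were lowest, had the highest Cflar of all libraries. Tumor libraries had 69.5, 69.5, 61.8 and 48.8 TPM.

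Cflar fell in skin against naive cells by 0.98 on the log2 scale (SE 0.31; limma adjusted p = 0.0245). The call was lost without skin replicate 4 (-0.72, adjusted p = 0.116), without naive replicate 1 (-0.93, 0.0682) and with equal T cell identity sums (-0.40, 0.662). Skin against lymph node memory was -0.85 (limma adjusted p = 0.0925), with no overlap. Day 12 lymph node lay below naive cells by -0.68 (0.180) and lymph node memory above day 12 by 0.55 (0.331), again with no overlap. Both differences changed sign with equal T cell identity sums, to 0.02 and -0.11. Both were called with weights per group (limma adjusted p = 2.89e-07 and 0.00266) and with only the 2 groups compared (7.12e-05 and 0.00228). These fits called 11201 and 10742 genes for day 12 lymph node against naive. Genes most like Cflar were Snrnp200 (r = 0.858), Sbf1 (0.853) and Rnf20 (0.837), lower values than those of the other members apart from Fadd.

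Because Casp8 and Cflar products compete for the same complex, their ratio of TPM within a library is given as a description. A ratio within a library does not depend on how much of the RNA came from other cells that express neither gene. It was 1.31, 1.47, 1.43 and 1.53 in naive libraries and 1.42, 1.45, 1.44 and 1.05 in day 12 lymph node. It was 1.14, 0.881, 0.740 and 0.981 in lymph node memory, below every naive library. In skin it was 0.589, 0.738, 0.696 and 0.366. Every skin library was below 1 and below every naive, day 12 lymph node, lymph node memory and tumor library. Tumor libraries had 1.52, 1.33, 1.46 and 1.01. Spleen ran from 0.201 to 1.68, lung from 0.388 to 1.43 and liver from 0.451 to 1.63, so these groups spanned most of the range. Cells of other types that express either gene would also enter this ratio, which was not tested.

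**Figure D4:**
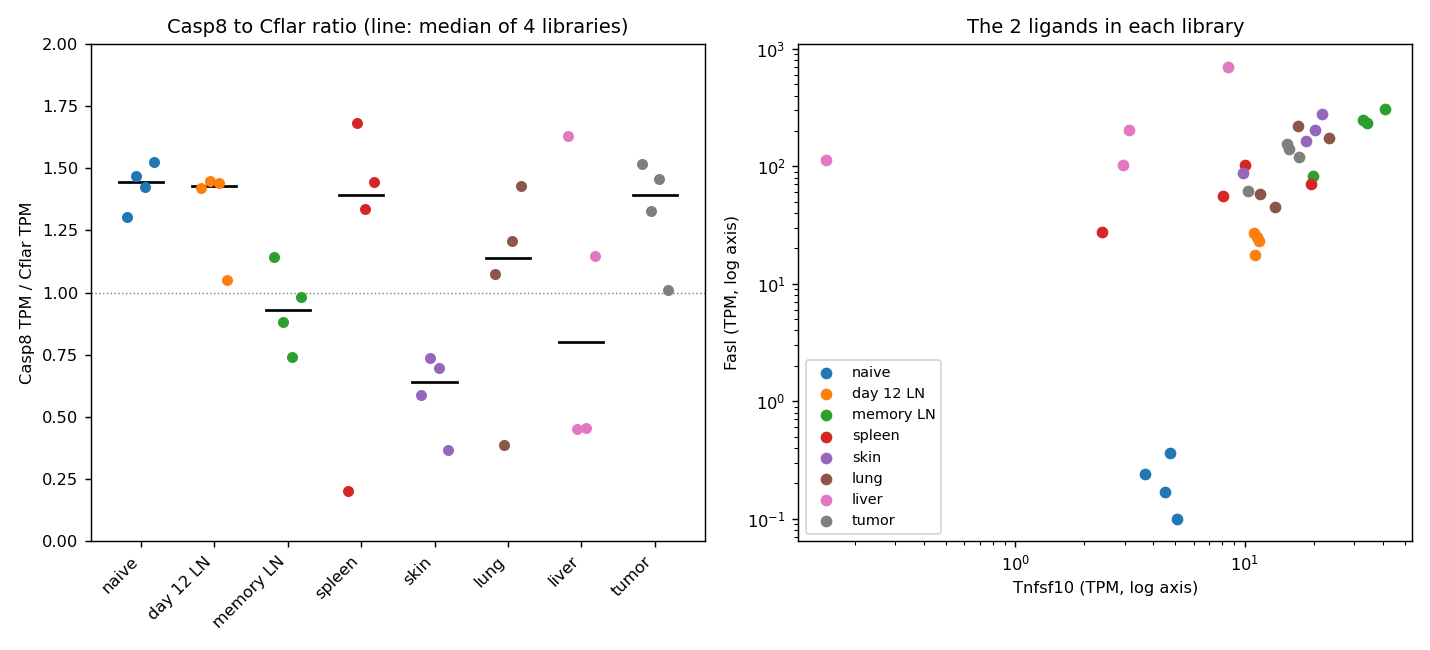
Left, Casp8 TPM divided by Cflar TPM in each library by group, with a line at the median of the 4 libraries and a dotted line at 1. Right, Fasl against Tnfsf10 in TPM on 2 log axes, coloured by group. Skin sits between 0.366 and 0.738 on the left, and the liver libraries lie to the upper left of the other groups on the right, with ratios of Fasl to Tnfsf10 from 34.8 to 749.

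The members' levels were only loosely tied to each other across the 32 libraries. The strongest Pearson correlation of log2 levels was 0.525, between Casp8 and Cflar, followed by 0.454 between Fasl and Tnfsf10. Fasl had negative values with Fas (-0.306), Fadd (-0.323), Casp8 (-0.383) and Cflar (-0.341). These are descriptions over 8 groups of 4 libraries that differ in their content of T cell RNA.

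Casp8 acts on other caspases, so 8 further caspase genes were described from a list of named genes. Against naive cells, 2 of 8 were called higher in day 12 lymph node, 2 in lymph node memory, 1 in spleen, 3 in skin, 1 in lung, 1 in liver and 2 in tumor. Of all tested genes, 5.95% were called higher in day 12 lymph node, 4.61% in lymph node memory, 3.62% in spleen, 8.97% in skin, 4.86% in lung, 7.23% in liver and 7.32% in tumor. The 2 called lower were both in liver, where 29.8% of all genes were called lower, and they were Casp2 (-2.80) and Casp6 (-2.22). Both of these calls were lost with only the 2 groups compared and with equal T cell identity sums (-1.85 and -0.96, limma adjusted p = 0.0661 and 0.28). They were also lost without the T cell-poor libraries, where liver replicate 1 alone gave -1.23 and -0.43 (0.304 and 0.514). The list's median difference was 0.46 in skin and 0.59 in tumor, against -0.14 and -0.06 over all tested genes.

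Casp1, which processes interleukin-1 in the inflammasome, rose against naive cells in all 7 groups. Its mean was 2.57 ± 0.20 TPM in naive cells, 106 ± 9.36 in day 12 lymph node, 146 ± 34.9 in lymph node memory and 41.6 ± 23.2 in skin (SD, n = 4). The log2 differences ran from 3.31 in skin (limma adjusted p = 1.53e-06) to 5.34 in lymph node memory (3.57e-10), and all 7 calls held in every alternative. It was lower in skin than in lymph node memory by -2.03 (limma adjusted p = 0.00294).

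Casp4, the noncanonical inflammasome caspase, rose in day 12 lymph node by 2.66 (limma adjusted p = 0.00377) and in tumor by 2.61 (0.00366). Both calls were lost at a pseudocount of 0.1 (limma adjusted p = 0.0598 and 0.051). Casp4 was also called higher in lymph node memory and in skin, calls that held in 14 and 9 of 17 alternatives. Casp14 rose in skin by 2.0 (0.000214), to a mean of 4.36 ± 3.59 TPM. Casp14 is a caspase of keratinocytes, and keratinocyte genes summed to 190 to 3512 TPM in the same libraries, a part in the result that was not tested.

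**Figure D5:**
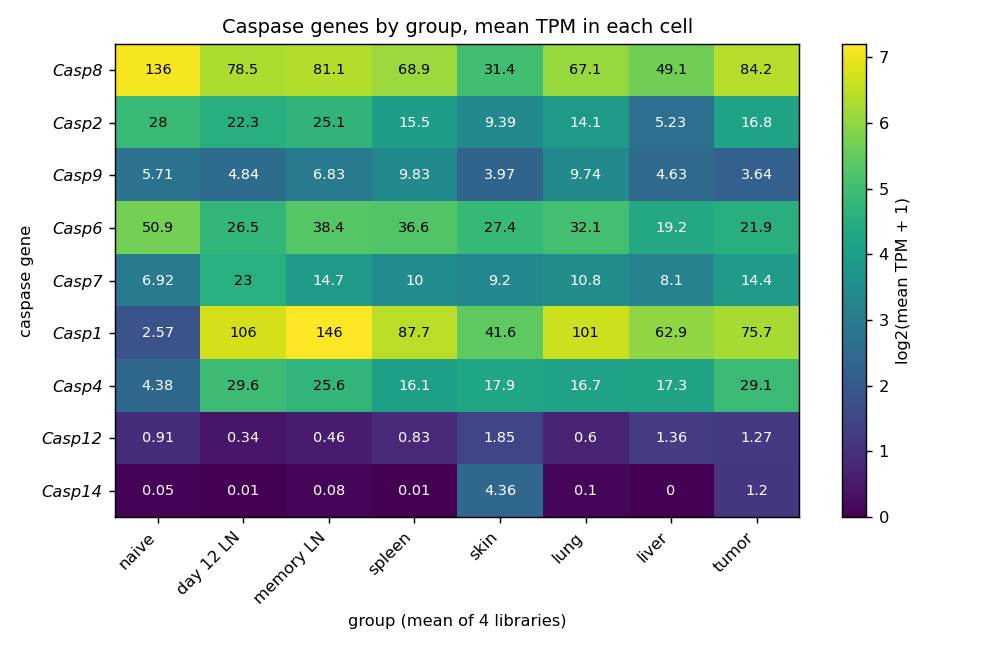
Mean TPM of Casp8 and 8 further caspase genes (rows) in the 8 groups (columns, mean of 4 libraries), coloured by log2 of the mean + 1. Casp8 is highest in naive cells at 136 TPM, and Casp1 goes from 2.57 TPM in naive cells to at least 41.6 in every other group.

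Other ligands and receptors of the TNF family, not all of them with a death domain, were a list of 16 genes, of which 12 were tested. Against naive cells 3 were called higher and 4 lower in skin, 2 higher and 3 lower in tumor, and 2 higher and 4 lower in liver. In lymph node memory 1 was higher and 1 lower, in day 12 lymph node 2 were lower, and in spleen and lung 1 was lower. Of all tested genes, 8.97% were called higher and 10.5% lower in skin, 7.32% and 8.02% in tumor, and 7.23% and 29.8% in liver. The shares called lower were 5.14% in day 12 lymph node, 1.9% in lymph node memory, 2.46% in spleen and 4.53% in lung. The list's median difference was 0.12 in skin, -0.35 in tumor and -0.54 in liver, against -0.14, -0.06 and -0.55 over all tested genes, so the liver list lay at the level of all genes. Tnfrsf26, a mouse receptor of the TRAIL receptor cluster, fell in all 7 groups. Its mean was 27.4 ± 2.02 TPM in naive cells, 0.47 ± 0.49 in skin and 0.91 ± 0.55 in tumor, with log2 differences of -4.32 (limma adjusted p = 3.08e-07) and -3.93 (1.64e-06). The fall in spleen, of 1.81 (0.0280), was the least firm and held in 9 of 17 alternatives. It was lost without any 1 naive library or without spleen replicate 1 or 2. With equal T cell identity sums the calls in day 12 lymph node, spleen, lung and liver were lost.

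Tnf, which encodes tumor necrosis factor, rose in skin by 4.12 (limma adjusted p = 4.40e-06), from 6.56 ± 1.17 to 147 ± 81.3 TPM, and in lymph node memory by 2.35 (0.00835). It was also higher in skin than in spleen by 4.69 (1.49e-06) and than in tumor by 2.76 (0.00200). Tnfrsf25, the death receptor DR3, fell against naive cells in skin (log2 difference -2.82, limma adjusted p = 0.000262) and in tumor (-2.64, 0.000653). Tnfrsf1b, the second TNF receptor, rose in skin by 3.16 (0.00130), to 188 ± 114 TPM. Myeloid cells also express Tnf and Tnfrsf1b, and the myeloid genes summed to 398.7 to 8318 TPM in skin against 94.6 to 118.7 TPM in naive libraries. Without skin replicate 3, the library with the highest myeloid sum, the differences were 4.36 for Tnf (7.17e-06) and 3.06 for Tnfrsf1b (0.00457), and the part of myeloid cells in the rest was not tested. Ltb, which encodes lymphotoxin beta, fell in day 12 lymph node (-1.8, 0.00692), in skin (-2.56, 0.000110) and in liver (-2.72, 5.27e-05). It was also called lower in tumor (-1.35, 0.039), a call that held in 8 of 17 alternatives. The liver value of Ltb was -1.24 (0.00215) with equal T cell identity sums.

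Among 20 tested adaptors and ubiquitin regulators of the receptor complexes, 1 was called higher in skin, liver, lung and lymph node memory against naive cells. Each time it was Tnfaip3. Of all tested genes, 8.97%, 7.23%, 4.86% and 4.61% were called higher there, so 1 of 20 is near the background. Tnfaip3 encodes A20, which restrains NF-κB and cell death signalling. Its mean was 11.96 ± 1.28 TPM in naive cells, 899 ± 537 in skin and 288 ± 258 in liver, with differences of 5.86 (limma adjusted p = 9.33e-09) and 4.03 (6.48e-06). Lung followed at 2.53 (0.00345). Skin also exceeded spleen by 5.24 (2.27e-07), tumor by 4.68 (1.32e-06) and lymph node memory by 3.75 (7.62e-05). Myeloid genes summed to 398.7 to 8318 TPM in skin and 1926 to 17070 TPM in liver, against 94.6 to 118.7 TPM in naive libraries. Without skin replicate 3, the library highest in myeloid genes, the skin difference from naive was 5.94 (limma adjusted p = 4.56e-08). The part of other cells in these Tnfaip3 values was not tested. The lymph node memory rise, 2.11 (0.0194), was lost without naive replicate 2 or 4 or lymph node memory replicate 1, 2 or 3. Called lower were 3 genes in skin, 7 in liver and 1 in tumor, where 10.5%, 29.8% and 8.02% of all tested genes were called lower, so the 7 of 20 in liver is near the background. Daxx, a death-domain-associated protein, was one of them in liver, at -3.46 (7.72e-05), and at -1.58 (0.0221) with liver replicate 1 alone. The liver list had a median of -0.75 against -0.55 for all tested genes.

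Of 13 genes of the mitochondrial link and execution, 1 was called lower in skin, 5 in liver and 2 in tumor against naive cells, and 1 was called higher in day 12 lymph node and 1 in tumor. The shares of all tested genes called lower were 10.5%, 29.8% and 8.02%, so the 5 of 13 in liver is near the background, and 5.95% and 7.32% were called higher in day 12 lymph node and tumor. The list's median in liver was -0.90, against -0.55 over all tested genes. Lmnb1, the lamin B1 gene and a caspase substrate, rose in day 12 lymph node by 3.71 (limma adjusted p = 0.000307). Dffb, the caspase-activated DNase, fell in skin by 2.38 on the log2 scale (0.00226). Bid, which carries the caspase-8 signal to mitochondria, had means of 21.8 ± 2.49 TPM in naive cells and 12.3 ± 14.6 in liver. Its call in liver, -1.93 (0.0332), was lost without any 1 naive library or liver replicate 2 or 3, and held in 5 of 17 alternatives.

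Caspase-8 also restrains necroptosis, the death pathway of RIPK3 and MLKL. Of 9 necroptosis and pyroptosis genes, 3 were called higher in day 12 lymph node and in liver, and 1 in each of the other 5 groups against naive cells. Called lower were 3 in skin and 2 in liver. Of all tested genes, 5.95% were called higher in day 12 lymph node, 7.23% in liver and between 3.62% and 8.97% in the other 5 groups, and 10.5% were called lower in skin and 29.8% in liver. The list's median was 0.15 in day 12 lymph node and 0.51 in liver, against -0.19 and -0.55 over all tested genes. Mlkl, the necroptosis effector, rose in tumor by 3.89 (limma adjusted p = 5.89e-06), from 0.25 ± 0.13 to 17.4 ± 0.10 TPM. It also rose in day 12 lymph node by 2.10 (0.00938) and lung by 2.17 (0.00909). Mlkl was called higher in lymph node memory, spleen and liver too, and these calls held in 15, 8 and 15 of 17 alternatives. Ripk3, its kinase, rose in day 12 lymph node by 1.65 (0.00930). Pycard, the inflammasome adaptor ASC, rose in day 12 lymph node by 1.51 (0.000822) and was called lower in skin, at -1.23 (0.00441), a call lost with equal T cell identity sums. Ninj1, needed for membrane rupture, rose in skin by 2.22 (0.00124) and in liver by 2.91 (5.38e-05), and myeloid genes summed to 398.7 to 8318 TPM in skin and 1926 to 17070 TPM in liver, a part in the result that was not tested.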

How the data were processed

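Bulk RNA sequencing gave 1 library for each of 32 samples of CD8+ Thy1.1+ Pmel T cells, 4 in each of 8 groups assigned by the sample labels. The authors deposited natural log values of TPM + 1, settled from the values themselves: converted back, they are multiples of 0.01 TPM and each library sums to between 999999.06 and 1000000.8. Read counts and depth were not analysed here, so no counting error could be given. The submitters' processing notes name Bowtie and the mm10 build. For its version, the annotation, the counting step and the use of strand, nothing is stated in the sources used here. Skin, lung and liver were digested with enzymes, the last 2 followed by a Percoll gradient, and lymph nodes were only dispersed mechanically, per the labels' protocols.

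TPM + 1 was converted to log2. Genes reaching 1 TPM in 4 libraries or more, 19738 of the 42409 above 0 in any, entered 1 limma model (limma 3.58.1, R 4.3.3) over the 8 groups with a variance trend and 24 residual degrees of freedom. P-values were adjusted by Benjamini-Hochberg over all tested genes within each of 15 comparisons and called below 0.05. The planned design covered counts or TPM, and the branch for TPM was used. The fit was also run on simulated data, in which each gene had the same spread in every group. The spreads of the real groups differ, so that run does not check the fit under unequal spreads. Python 3.11.15 served for summaries and figures.

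The members, the 5 pathway lists and the 12 marker lists were chosen with earlier results of these data known. All 7 members are named, and 1 gene of a pathway list is not reported here. Pathway genes named are from the 4 called genes of largest difference per list and comparison, of which only some are printed, and similar genes are the 3 of highest Pearson correlation with a mean log2 level of at least 3. Alternatives were no filter, a minimum of 5 TPM, a pseudocount of 0.1, weights per group, a replicate block, quantile normalization, only the 2 groups compared, and leaving out single libraries or the 5 T cell-poor libraries (summed T cell identity genes under 0.5 of the median). Rescaling to equal T cell identity sums was added after seeing the data.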

Additional observations from a re-analysis of the deposited data

Results flagged for a closer look

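In 6 of 56 combinations of a gene and a group, 1 library stood far from the other 3 by Dixon's criterion, which chance meets in about 1 of 20 groups. Skin replicate 4 was the low library for 3 genes: Fas at 11.41 TPM against 40.9 to 45.2 in the other skin libraries, Casp8 at 9.83 TPM against 35.7 to 41.4, and Cflar at 26.89 TPM against 55.8 to 60.6. This library also had the lowest T cell identity sum of the skin group, 2535 TPM, and the highest keratinocyte sum, 3512 TPM. The part of these in its values was not tested. Fas in tumor replicate 1 was high, at 19.43 TPM against 12.8 to 13.2. Tnfrsf10b in spleen replicate 1 was high, at 21.84 TPM against 4.8 to 5.51. Cflar in naive replicate 1 was high, at 105.82 TPM against 91.0 to 92.7.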

How the results depend on the processing

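Of the 20 called pairs of a member and a comparison, 11 held in every alternative run: the 7 Fasl differences from naive cells, Fasl in lymph node memory against day 12, Tnfsf10 in lymph node memory and in skin against naive, and Casp8 in skin against naive. Another 25 pairs were called only in an alternative, a count not made over all tested genes. Some alternatives called far more of the 19738 tested genes. Day 12 lymph node against naive had 2189 genes called in the limma fit, 11201 with weights per group and 10742 with only the 2 groups compared. Tumor against naive had 3027, 9679 and 9319. The higher member counts given below for these fits and comparisons are thus no result about the members. The cause of the changes below was not tested. The number of members called moved by more than 1.5 times as follows. Without a filter it was 0 in liver against spleen, skin against tumor and skin against lymph node memory. With a minimum of 5 TPM it was 2 in liver against spleen. At a pseudocount of 0.1 it was 1 in lung and 1 in tumor against naive, 2 in liver against spleen, and 0 for skin against tumor and lymph node memory. Weights per group gave 5 in day 12 lymph node, 2 in spleen, 2 in liver and 5 in tumor against naive. They gave 1 in lymph node memory and 0 in liver against spleen, 4 in lymph node memory against day 12 and 2 in skin against lymph node memory. Quantile normalization gave 3 in day 12 lymph node, 2 in spleen and 2 in liver against naive, and 1 in lymph node memory and 2 in skin against spleen. With only the 2 groups compared it was 6 in day 12 lymph node, 2 in liver and 5 in tumor against naive, 0 in liver against spleen, 3 in lymph node memory against day 12, and 0 for skin against tumor and lymph node memory. Without the 5 T cell-poor libraries, which leaves liver replicate 1 alone in its group, it was 3 in day 12 lymph node, 3 in spleen and 1 in liver against naive, and 2 in lymph node memory and 2 in skin against spleen. It was then 2 in lymph node memory against day 12, 2 in skin against tumor and 0 in skin against lymph node memory. With equal T cell identity sums, an alternative chosen after seeing the data, it was 2 in day 12 lymph node and 1 in liver against naive, 1 in skin against spleen and 0 in skin against lymph node memory. Leaving out single libraries gave 1 to 2 in lung and in tumor against naive and in liver against spleen. It gave 0 to 1 in lymph node memory and skin against spleen and in skin against tumor and lymph node memory, 3 to 4 in skin against naive, and 4 to 6 for any difference between the 8 groups. Smaller moves were from 2 to 3 in tumor against naive at 5 TPM, with quantile normalization and without the T cell-poor libraries, and likewise in lung in the last 2 of these. They were from 2 to 3 in lymph node memory against naive with weights and with only the 2 groups compared, and from 4 to 3 in skin against naive with equal T cell identity sums. For any difference between the groups, all alternatives gave 3 to 6.

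Of the 105 pairs of a member and a comparison, 52 were called in some fit or had groups that did not overlap. The same count was not made over all tested genes, so 52 is no result about the members. Among these 52 pairs and the called list genes, signs turned in the cases below. Of the other 53 pairs, 31 changed sign in some alternative. With equal T cell identity sums, Fas (0.45) and Cflar (0.02) in day 12 lymph node, Fadd (0.04) and Cflar (0.73) in liver and Cflar in tumor (0.10) against naive became positive, and Cflar in lymph node memory against day 12 became -0.11. Among list genes in liver against naive, Tnip1 (0.03), Cyld (0.47) and Zbp1 (0.30) turned likewise. Fadd in liver against spleen was 0.13 with quantile normalization. Without the T cell-poor libraries, with liver replicate 1 alone, Tnfsf10 (0.05) and Sharpin (0.09) in liver against spleen and Rbck1 (0.07), Sharpin (0.01), Casp8ap2 (0.00) and Tnip1 (0.05) in liver against naive turned.

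Whether the replicate numbers of the titles pair libraries is not stated. Of 112 same-numbered pairs, 33 correlated above 0.1 (median r 0.018, highest 0.517), and 11 of 32 libraries correlated best with their own number. These values pool all 8 groups, so they cannot decide whether some of the groups are paired. With the number as a replicate block, 0 members were called in skin against tumor and 0 in skin against lymph node memory (Casp8 adjusted p 0.0544 and 0.0559 with limma), and no other call of a member changed. Of 128 called comparisons of list genes, 44 held in every alternative. TPM carry no depth, so low levels such as Fadd and naive Fasl have unknown counting error, and a TPM share moves with the RNA of other cells, most in liver.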
